A study of Mus musculus with 17 samples.

Results

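The receptors for immunoglobulin G were followed in lungs of C57BL/6 mice and in a cell product made for injection. The group is 6 of the 18262 genes in the deposited expression table, taken by gene symbol: the activating receptors Fcgr1, Fcgr3 and Fcgr4, the inhibitory receptor Fcgr2b, the shared signalling chain Fcer1g and the neonatal Fc receptor Fcgrt. The study's title concerns the lung before metastasis in a rhabdomyosarcoma model. Lung RNA came from 4 groups of 4 libraries. The tumor_GEMy mice carried M3-9-M tumors and were given IL12-GEMy cells, and the tumor_untreated mice carried the same tumors without the cells. The naive_GEMy mice had no tumor and were given the cells, and the naive_untreated mice had neither. M3-9-M is a mouse rhabdomyosarcoma line, here carrying firefly luciferase and mCherry, and 500000 cells were placed in the gastrocnemius muscle. IL12-GEMy cells are myeloid cells grown from bone marrow with SCF, FLT3L and IL-6 and given interleukin-12 by a lentivirus. A dose of 8000000 cells was given intravenously, on day 12 after tumor inoculation in tumor-bearing mice, and lungs were taken 3 days later, which was day 15 after inoculation. The cell product itself, GEMy_product, was sequenced as 1 library. The labels do not say that each library is a different mouse, so a p-value here covers only library-to-library spread, part of which may be technical. The sample descriptions also carry the number 1 in all tumor_untreated and 2 in all tumor_GEMy samples, and what that number stands for cannot be told apart from the treatment. The descriptions of the tumor-bearing samples end in a letter code that differs between the libraries of a group and whose meaning the labels do not give.

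Fc gamma receptors bind the constant part of immunoglobulin G and let an antibody-coated target act on a leukocyte. The activating receptors pass their signal through the Fcer1g chain, which carries a tyrosine-based activation motif that recruits the kinase Syk, and lead to phagocytosis, cytokine release and killing of coated cells. Fcgr2b carries an inhibitory motif that recruits the phosphatase Inpp5d (SHIP-1) and raises the threshold for such responses. Fcgrt is the heavy chain of the neonatal Fc receptor, a relative of class I histocompatibility molecules that pairs with beta-2 microglobulin (B2m) and returns swallowed immunoglobulin G to the blood. In lung the activating receptors are known from alveolar and interstitial macrophages, monocytes, neutrophils and, for Fcgr3, natural killer cells, and the neonatal receptor from endothelium, epithelium and macrophages.

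The recovered depth was 27567248 to 36814803 assigned reads in the lung libraries and 31111608 in the product. The lungs carried the surfactant gene Sftpc at 2865 to 5087 FPKM, against 0.0307 FPKM in the product. The product carried the granule gene Mpo at 165.5 FPKM and lungs carried 0.0443 to 1.23 FPKM. FPKM here is reads per 1000000 assigned reads per kilobase of genomic span, introns included, so it serves to compare libraries within a gene. Levels between genes are given as reads per 1000000 assigned reads (RPM) per kilobase of the longest coding transcript, counting its bases within the deposited span. For Fcgr2b that is 1547 of 3544 bases, while for the other members it is all or nearly all of the transcript. In bulk lung, fewer cells of a type and less RNA per cell cannot be told apart.

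On mouse build mm10, Fcgr2b lies on chromosome 1 at 170960559 to 170976072, Fcgr4 at 171018926 to 171029762, Fcgr3 at 171051169 to 171059404 and Fcer1g at 171229572 to 171234350, as the deposited table lists their spans. Fcgr4 is on the plus strand and the other three are on the minus strand. Fcgr1 lies on chromosome 3 at 96282909 to 96293970 and Fcgrt on chromosome 7 at 45092993 to 45103823, both on the minus strand. No exon of a member overlapped an exon of another annotated gene. Fcgr3 and Fcgr2b share sequence: 12.8% of the 50-base windows of the Fcgr3 transcript also occur in the Fcgr2b transcript, and 7.38% of the 75-base windows. How reads in the shared stretch were assigned is not given in the sources used here, so the split between these genes is uncertain to that extent. No other pair of members shared a window of either length.

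Fcgr1 encodes the high-affinity receptor, also called CD64. It was listed at 2.91, 3.17, 2.76 and 3.02 FPKM in the tumor_GEMy lungs, at 1.37, 2.93, 3.54 and 3.05 FPKM in tumor_untreated lungs, at 2.60, 1.88, 1.85 and 2.18 FPKM in naive_GEMy lungs, and at 0.515, 0.638, 0.569 and 0.675 FPKM in naive_untreated lungs. All 12 libraries with a tumor or the cells lay above the naive_untreated libraries. The first tumor_untreated library was the lowest of these 12, at 502 reads, against 1000 to 1095 reads in the other tumor_untreated libraries. The naive_untreated values rest on 159 to 222 reads.

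Fcgr3 encodes the low-affinity activating receptor, the main one on mouse natural killer cells. It had 16.9, 14.0, 12.5 and 16.5 FPKM in tumor_GEMy lungs, 15.0, 18.4, 18.5 and 21.8 FPKM in tumor_untreated lungs, 9.36, 8.32, 7.91 and 8.84 FPKM in naive_GEMy lungs, and 4.52, 4.36, 4.87 and 4.68 FPKM in naive_untreated lungs. The 8 tumor-bearing lungs lay above all 4 naive_GEMy lungs, and these lay above all 4 naive_untreated lungs. The values of both tumor-bearing groups overlapped.

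Fcgr4 encodes a mouse activating receptor for immunoglobulin G2a and G2b on monocytes, macrophages and neutrophils. It had 6.54, 6.63, 5.42 and 7.73 FPKM in tumor_GEMy lungs, 4.37, 6.39, 7.15 and 7.97 FPKM in tumor_untreated lungs, 3.86, 3.51, 2.80 and 4.53 FPKM in naive_GEMy lungs, and 0.819, 0.768, 0.789 and 0.680 FPKM in naive_untreated lungs. The group means gave tumor_GEMy lungs 8.61 times, tumor_untreated lungs 8.47 times and naive_GEMy lungs 4.81 times the naive_untreated level. In all 3 comparisons with naive_untreated lungs this was the largest log2 change among the 6 genes. The lowest tumor_untreated library lay within the naive_GEMy range.

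Fcgr2b, the inhibitory receptor, had 2.22, 2.48, 2.31 and 3.11 FPKM in tumor_GEMy lungs, 2.55, 3.08, 3.74 and 3.87 FPKM in tumor_untreated lungs, 2.16, 1.89, 1.96 and 2.31 FPKM in naive_GEMy lungs, and 1.48, 1.57, 1.56 and 1.49 FPKM in naive_untreated lungs. The naive_untreated libraries were the 4 lowest of the 16. The tumor_GEMy values overlapped those of both tumor_untreated and naive_GEMy lungs.

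Fcer1g, the signalling chain, had 21.3, 21.6, 18.7 and 20.4 FPKM in tumor_GEMy lungs, 20.2, 31.5, 33.9 and 35.9 FPKM in tumor_untreated lungs, 18.8, 15.7, 13.7 and 18.5 FPKM in naive_GEMy lungs, and 7.72, 9.18, 9.11 and 8.88 FPKM in naive_untreated lungs. Of the tumor_untreated libraries 3 lay above every tumor_GEMy library and the first lay among them. Fcgrt ran the other way, with 7.23, 6.49, 6.83 and 7.46 FPKM in tumor_GEMy lungs, 7.90, 6.66, 6.84 and 6.08 FPKM in tumor_untreated lungs, 8.96, 8.19, 7.26 and 7.93 FPKM in naive_GEMy lungs, and 7.97, 8.43, 8.20 and 9.48 FPKM in naive_untreated lungs. Its group means spanned 6.87 to 8.52 FPKM, the narrowest relative range of the 6 genes.

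**Figure D1:**
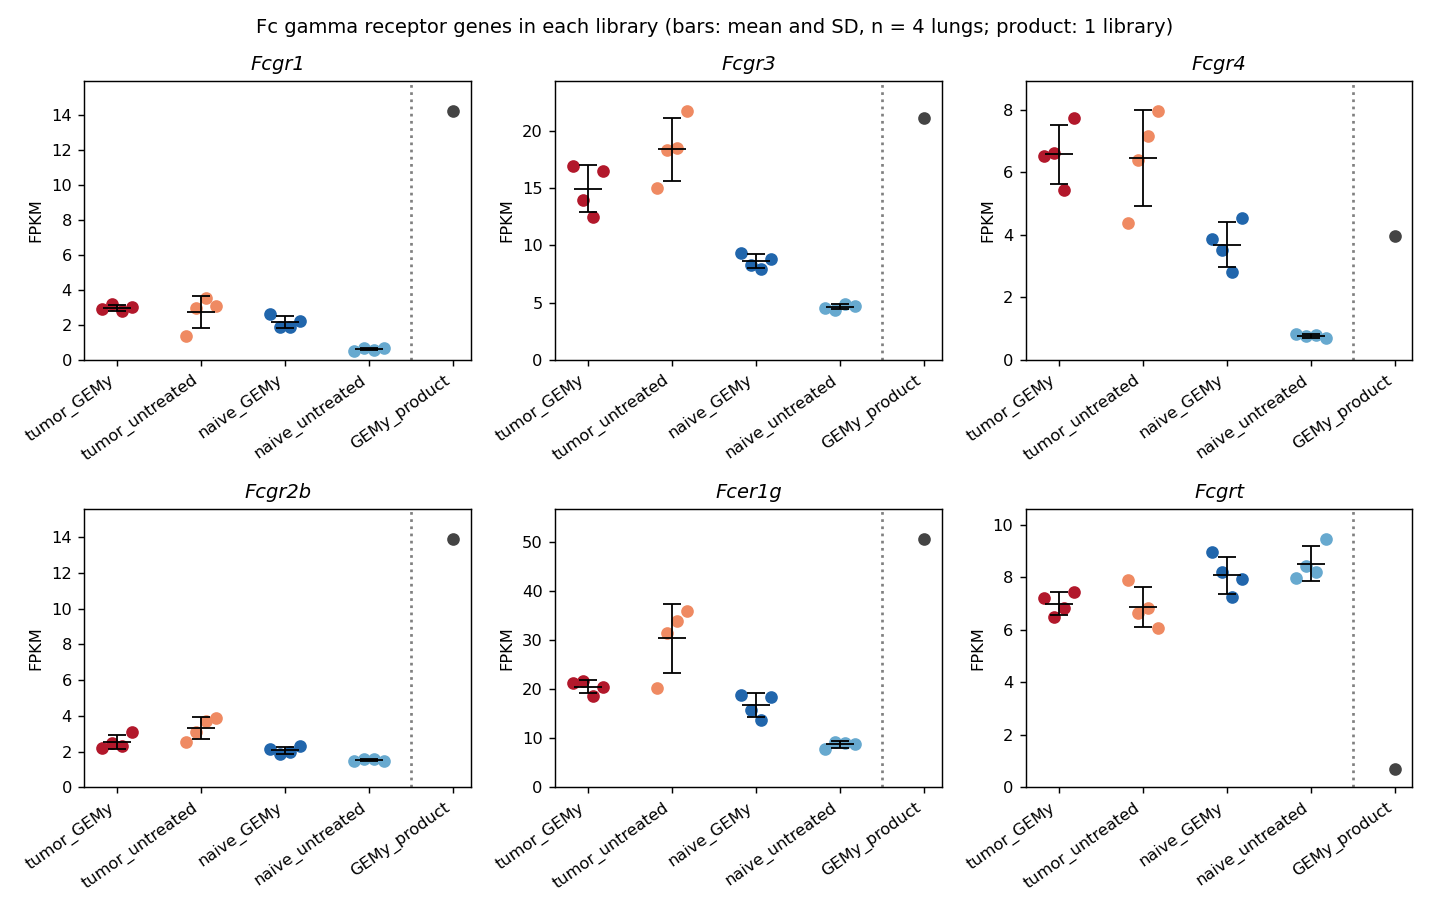
FPKM of each gene (vertical axes, linear and starting at 0) in every library, by group, with points for libraries and bars for the mean and SD of 4 lungs; the product is 1 library, right of the dotted line. Fcgr4 sits between 0.680 and 0.819 FPKM in naive_untreated lungs and between 2.80 and 7.97 FPKM in the other lungs, while Fcgrt stays between 6.08 and 9.48 FPKM in all 16.

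The first comparison set lungs of mice with a tumor in the leg against lungs of mice with neither tumor nor cells. Fcgr1, Fcgr3, Fcgr4, Fcgr2b and Fcer1g rose and Fcgrt fell in tumor_untreated lungs relative to naive_untreated lungs. All 6 members passed, where 44.0% of all 10284 genes tested did, 16.9% as higher and 27.2% as lower. With median-of-ratios scaling the calls over all genes split into 2416 higher and 1751 lower, against 1733 higher and 2797 lower here. On the log2(FPKM + 0.5) scale Fcgr4 rose by 2.43 (SE 0.15, adjusted p = 2.42e-08, limma with Benjamini-Hochberg adjustment over all genes tested, as for every adjusted p here). Fcgr3 rose by 1.88 (SE 0.10, adjusted p = 8.57e-09), Fcer1g by 1.71 (SE 0.14, adjusted p = 3.33e-07), Fcgr1 by 1.50 (SE 0.17, adjusted p = 8.55e-06) and Fcgr2b by 0.90 (SE 0.10, adjusted p = 9.49e-06). Without the first tumor_untreated library the Fcgr1 estimate was 1.74, and over the other settings it ran from 1.18 to 2.03. The naive_untreated values of Fcgr1, 0.515 to 0.675 FPKM, lie near the 0.5 FPKM added before the log. By the ratio of group means the order was another, at 4.54 for Fcgr1, 4.00 for Fcgr3 and 3.48 for Fcer1g. Fcgrt fell by 0.29 (SE 0.081, adjusted p = 0.00823), and with median-of-ratios scaling the fall was 0.21 with an adjusted p of 0.0505, so that call depends on the scaling. The members' median was 1.61, against -0.048 over all genes tested.

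Markers of several leukocytes moved with these genes. In the same comparison 10 of 12 neutrophil markers and 10 of 11 monocyte and macrophage markers tested rose, as did 7 of 7 natural killer cell markers, while 0 of 9 alveolar macrophage markers rose and 1 fell. A sum of FPKM is set by the most abundant genes of its list. The summed neutrophil list was 1297 to 2348 FPKM in tumor_untreated lungs, against 73.5 to 114.2 FPKM in naive_untreated lungs. The summed monocyte and macrophage list was 1271 to 1454 FPKM in tumor_untreated lungs and 1256 to 1392 FPKM in naive_untreated lungs. Most of this sum was 1 gene, Lyz2 (lysozyme), at 1106 to 1225 FPKM in tumor_untreated lungs and 1152 to 1287 FPKM in naive_untreated lungs. Without Lyz2, a sum added after the values were seen, the list was 165.2 to 265.8 FPKM in tumor_untreated lungs and 91.9 to 115.5 FPKM in naive_untreated lungs. The natural killer cell list was 14.6 to 33.8 FPKM in tumor_untreated lungs and 6.52 to 10.05 FPKM in naive_untreated lungs. Of the B cell markers, from cells that carry Fcgr2b as their Fc gamma receptor, 4 of 5 tested fell, and of the endothelial markers 6 of 9 fell. All 7 lung epithelial markers fell, with a median of -0.39 and sums of 9078 to 11800 FPKM in tumor_untreated lungs and 13350 to 14580 FPKM in naive_untreated lungs. Of the T cell markers 4 of 6 rose, and of the mast cell and basophil markers 3 of 4. No marker of these lists was listed at 0 in all lungs of a group, and the part of these cells in the receptor results was not tested.

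The second comparison gave the effect of the cells in mice without a tumor. Fcgr4, Fcgr1, Fcer1g and Fcgr3 rose in naive_GEMy lungs relative to naive_untreated lungs, 4 of the 6 members, where 7.10% of all genes tested were called, 5.60% as higher and 1.50% as lower. This comparison and the first share the naive_untreated libraries. Fcgr4 rose by 1.71 on the log2(FPKM + 0.5) scale (SE 0.15, adjusted p = 1.08e-06), Fcgr1 by 1.25 (SE 0.17, adjusted p = 0.000132), Fcer1g by 0.89 (SE 0.14, adjusted p = 0.000726) and Fcgr3 by 0.83 (SE 0.10, adjusted p = 4.63e-05). For each of these the 4 naive_GEMy lungs lay above the 4 naive_untreated lungs. The share of all genes tested whose groups separate in this way, here or in the other comparisons, is not given here. Fcgr2b differed by 0.35 (95% interval 0.12 to 0.57) with an adjusted p of 0.0580. Its 4 naive_GEMy libraries also lay above all naive_untreated libraries, at 1.36 times their mean, and its adjusted p lay between 0.00239 and 0.0888 over the other settings. It passed in 6 of 12 other settings and in 3 of 16 fits with a library left out, so this call depends on the processing. Fcgrt differed by -0.073 (95% interval -0.24 to 0.098, adjusted p = 0.671).

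Natural killer cell and some monocyte markers moved with the receptors here. In naive_GEMy against naive_untreated lungs 0 of 12 neutrophil markers passed, and the summed list was 54.9 to 118.0 FPKM in naive_GEMy lungs and 73.5 to 114.2 FPKM in naive_untreated lungs. All 7 natural killer cell markers rose, with a summed level of 30.8 to 52.4 FPKM in naive_GEMy lungs and 6.52 to 10.05 FPKM in naive_untreated lungs. Of the monocyte and macrophage markers 5 of 11 rose and 0 fell, with sums of 1425 to 1532 FPKM in naive_GEMy lungs and 1256 to 1392 FPKM in naive_untreated lungs. Without Lyz2 these sums were 143.2 to 174.7 FPKM in naive_GEMy lungs and 91.9 to 115.5 FPKM in naive_untreated lungs. Of the alveolar macrophage markers 0 of 9 passed, of the lung epithelial markers 0 of 7, of the T cell markers 0 of 6 and of the B cell markers 0 of 5. Of the endothelial markers 2 of 9 fell, and of the mast cell and basophil markers 1 of 4 rose. Of the 4 dendritic cell markers tested 1 rose and 1 fell. Whether these cells account for the receptor values was not tested.

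The third comparison gave the effect of the cells in tumor-bearing mice. Fcer1g alone of the 6 passed, lower by 0.53 in tumor_GEMy than in tumor_untreated lungs (SE 0.14, adjusted p = 0.0390), where 6.73% of all genes tested were called, 3.00% as higher and 3.72% as lower. Its groups overlapped, at 18.7 to 21.6 FPKM in tumor_GEMy lungs and 20.2 to 35.9 FPKM in tumor_untreated lungs. That call was lost in 4 of 12 other settings and in 10 of 16 fits with a library left out, with adjusted p-values up to 0.148. Fcgr2b differed by -0.32 (95% interval -0.55 to -0.10, adjusted p = 0.0821) and Fcgr3 by -0.29 (95% interval -0.51 to -0.067, adjusted p = 0.123). Without the first tumor_untreated library Fcgr2b, Fcgr3 and Fcer1g all passed as lower, at -0.43, -0.38 and -0.71. Fcgr1 differed by 0.16 (95% interval -0.20 to 0.53, adjusted p = 0.676), Fcgr4 by 0.043 (95% interval -0.28 to 0.36, adjusted p = 0.924) and Fcgrt by 0.029 (95% interval -0.14 to 0.20, adjusted p = 0.899). For Fcgr1 and Fcgr4 the sign also turned without that library, to -0.083 and -0.12. The groups overlapped for all 6 members.

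In this comparison the neutrophil sum was 705.6 to 2174 FPKM in tumor_GEMy lungs and 1297 to 2348 FPKM in tumor_untreated lungs, and 2 of 12 neutrophil markers fell. Of the 11 monocyte and macrophage markers 1 rose and 2 fell, with sums of 1314 to 1405 FPKM in tumor_GEMy lungs and 1271 to 1454 FPKM in tumor_untreated lungs, or 172.0 to 209.8 FPKM in tumor_GEMy and 165.2 to 265.8 FPKM in tumor_untreated lungs without Lyz2. Csf1r, the receptor for macrophage colony-stimulating factor, was among those that fell, by 0.58 (SE 0.15, adjusted p = 0.0276). The pan-leukocyte gene Ptprc (CD45) differed by -0.28 (SE 0.17, adjusted p = 0.405). Of the natural killer cell markers 2 of 7 rose, with sums of 37.5 to 62.5 FPKM in tumor_GEMy lungs and 14.6 to 33.8 FPKM in tumor_untreated lungs.

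Treated lungs with a tumor were also set against the other naive group. Relative to naive_untreated lungs, Fcgr4 rose by 2.48, Fcgr1 by 1.66, Fcgr3 by 1.59, Fcer1g by 1.19 and Fcgr2b by 0.57 in tumor_GEMy lungs, with adjusted p-values of 1.63e-08 to 0.000591, and Fcgrt fell by 0.26 (SE 0.081, adjusted p = 0.0169). All 6 passed, where 39.3% of all genes tested were called, 13.6% as higher and 25.6% as lower. With median-of-ratios scaling those calls split into 1993 higher and 1363 lower genes, against 1403 and 2635. The Fcgrt call was lost with median-of-ratios scaling, at -0.17 with an adjusted p of 0.127. It was also lost without the second tumor_GEMy library, at -0.23 (adjusted p = 0.0541), or without the fourth naive_untreated library, at -0.22 (adjusted p = 0.0582). Relative to naive_GEMy lungs, Fcgr3 rose by 0.76 (SE 0.10, adjusted p = 0.000377) and Fcgr4 by 0.77 (SE 0.15, adjusted p = 0.00485) in tumor_GEMy lungs, where 13.2% of all genes tested were called, 4.03% as higher and 9.17% as lower, or 543 higher and 396 lower genes with median-of-ratios scaling and 527 and 658 with quantile normalization, against 414 and 943. The other four differed by -0.19 for Fcgrt to 0.41 for Fcgr1, with adjusted p-values of 0.123 to 0.181. Without the first tumor_untreated library, which enters only the shared spread, Fcgr1 and Fcer1g also passed in that comparison. Tumor_untreated lungs were higher than naive_GEMy lungs for Fcgr3 by 1.05, Fcer1g by 0.82, Fcgr4 by 0.73 and Fcgr2b by 0.55, with adjusted p-values of 4.35e-06 to 0.00313, where 22.7% of genes were called, 8.61% as higher and 14.1% as lower, or 1152 higher and 850 lower genes with median-of-ratios scaling against 885 and 1450. Fcgr1 differed by 0.25 (adjusted p = 0.308) in that comparison, and by 0.49 with a call (adjusted p = 0.00123) without the first tumor_untreated library. Fcgrt differed by -0.22 (adjusted p = 0.0577) there. It passed as lower without the first tumor_untreated library, at -0.29 (adjusted p = 0.0130), without the third naive_GEMy library, at -0.27 (adjusted p = 0.0357), and with array weights, at -0.24 (adjusted p = 0.00835).

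Hemoglobin reads were higher in every tumor_untreated than in every naive_GEMy lung, while the tumor_GEMy and naive_GEMy ranges overlapped at their ends. Their part in the last 2 comparisons was not tested beyond the fit given here. Hemoglobin genes took 0.225 to 1.78% of reads in tumor_GEMy lungs, 0.404 to 4.15% in tumor_untreated lungs, 0.0735 to 0.252% in naive_GEMy lungs and 0.143 to 1.15% in naive_untreated lungs. With hemoglobin as a covariate Fcgr3 still passed against naive_GEMy lungs in both tumor-bearing groups. Fcgr4 did not, at 0.60 in tumor_GEMy lungs (adjusted p = 0.125) and 0.50 in tumor_untreated lungs (adjusted p = 0.196). Fcgr2b and Fcer1g in tumor_untreated against naive_GEMy lungs also missed the threshold in that fit. Fcgr2b was at 0.51 (adjusted p = 0.0727), against 0.55 without the covariate, and Fcer1g at 0.63 (adjusted p = 0.0870), against 0.82. Without the covariate 10 of 12 neutrophil markers rose over naive_GEMy lungs in each tumor-bearing group. Of 11 monocyte and macrophage markers 2 rose and 0 fell in tumor_GEMy lungs, and 6 rose and 1 fell in tumor_untreated lungs. Of 7 natural killer cell markers 0 rose in either group. The part of these cells in the receptor values was not tested.

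The interaction term asked whether the cells changed the genes by different amounts with and without a tumor. It is the change of tumor_GEMy over tumor_untreated lungs minus the change of naive_GEMy over naive_untreated lungs. It was negative for Fcgr4 at -1.67 (SE 0.21, adjusted p = 0.00122), for Fcer1g at -1.41 (SE 0.20, adjusted p = 0.00187), for Fcgr3 at -1.12 (SE 0.15, adjusted p = 0.00122), for Fcgr1 at -1.09 (SE 0.24, adjusted p = 0.0141) and for Fcgr2b at -0.67 (SE 0.15, adjusted p = 0.0134). Of all genes tested 6.26% passed, 1.04% as positive and 5.22% as negative. With quantile normalization these calls split into 223 positive and 406 negative genes, against 107 and 537. These 5 members passed in each of the 11 other settings and in each of the 16 fits with a library left out. Over those settings the Fcgr1 term ran from -1.55 to -0.83 and the Fcgr4 term from -2.13 to -1.355. For Fcgrt the term was 0.10 (95% interval -0.14 to 0.34, adjusted p = 0.672). On this scale the 5 genes had their high levels in each group with a tumor, the cells or both, and the sum of the separate changes exceeded what the combination showed. The term also passed as negative for 6 of 11 monocyte and macrophage markers (median -0.83). It did so for 5 of 7 natural killer cell markers (median -0.96) and for 1 of 12 neutrophil markers. Of these lists 0 markers passed as positive, and of the T cell, B cell and alveolar macrophage markers 0 passed. Csf1r was at -0.92 (SE 0.21, adjusted p = 0.0166) and Ptprc at -0.83 (SE 0.24, adjusted p = 0.0534). The part of leukocytes in the receptor terms was not tested.

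**Figure D2:**
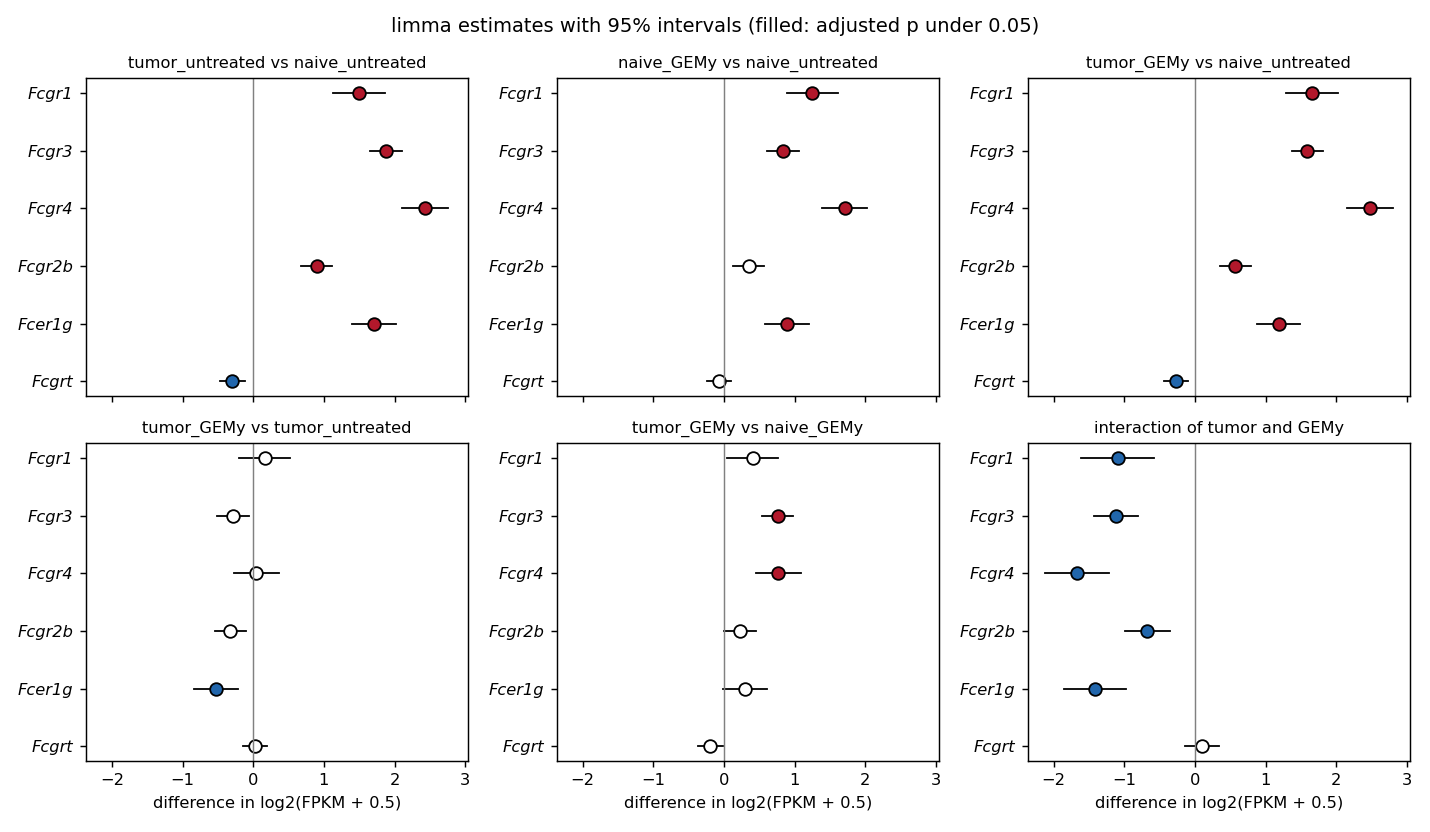
limma differences in log2(FPKM + 0.5) (horizontal axis) for the 6 genes in 5 comparisons and the interaction term, with 95% intervals; red and blue points passed as higher and lower, white points did not pass. Fcgr4 has the largest change in the upper row, at 2.43, 1.71 and 2.48, and sits at 0.043 for tumor_GEMy against tumor_untreated lungs.

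The order of the groups differed between genes. For Fcgr1 the means ran tumor_GEMy 2.96 ± 0.18, tumor_untreated 2.72 ± 0.94, naive_GEMy 2.13 ± 0.35 and naive_untreated 0.599 ± 0.072 FPKM (SD, n = 4 each), and only the last step passed. For Fcgr4 they were 6.58 ± 0.94, 6.47 ± 1.54, 3.67 ± 0.72 and 0.764 ± 0.060 FPKM in the same order of groups, and both the step to naive_GEMy and the step to naive_untreated passed. For Fcgr3 tumor_GEMy lungs had 15.0 ± 2.1, tumor_untreated lungs 18.4 ± 2.8, naive_GEMy lungs 8.61 ± 0.63 and naive_untreated lungs 4.61 ± 0.22 FPKM. Its tumor-bearing groups did not differ past the threshold. For Fcgr2b tumor_GEMy lungs had 2.53 ± 0.40, tumor_untreated lungs 3.31 ± 0.61, naive_GEMy lungs 2.08 ± 0.19 and naive_untreated lungs 1.52 ± 0.05 FPKM, and no step between neighbours in the order of these means passed. For Fcer1g tumor_GEMy lungs had 20.5 ± 1.3, tumor_untreated lungs 30.4 ± 7.0, naive_GEMy lungs 16.7 ± 2.4 and naive_untreated lungs 8.72 ± 0.68 FPKM, and of the steps in the order of these means the one between tumor_GEMy and naive_GEMy lungs did not pass. For Fcgrt tumor_GEMy lungs had 7.00 ± 0.43, tumor_untreated lungs 6.87 ± 0.76, naive_GEMy lungs 8.08 ± 0.70 and naive_untreated lungs 8.52 ± 0.67 FPKM, and no step between neighbours passed.

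Between genes, in RPM per transcript kilobase, Fcer1g was the most abundant member in every lung group, at 143.2 in tumor_GEMy, 212.4 in tumor_untreated, 116.6 in naive_GEMy and 61.0 in naive_untreated lungs. Fcgrt was next in naive_untreated lungs, at 53.1, ahead of Fcgr3 at 28.2. In tumor_GEMy lungs Fcgr3 at 91.6 and Fcgr4 at 57.0 stood above Fcgrt at 43.6, and in tumor_untreated lungs Fcgr3 at 112.6 and Fcgr4 at 56.1 stood above Fcgrt at 42.8. Fcgr1 was at 12.7, 11.6, 9.09 and 2.56 in the order tumor_GEMy, tumor_untreated, naive_GEMy and naive_untreated. It was below Fcgr2b in all 4 groups by the transcript bases within the span. Per full transcript, a length added after the values were seen, Fcgr2b was at 11.1, 14.5, 9.11 and 6.68 in the same order, so Fcgr1 was then above it in tumor_GEMy lungs.

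The make-up of the receptors differed between groups, and so did their total, but the shares did not follow the order of the totals. The summed level of Fcgr1, Fcgr2b, Fcgr3 and Fcgr4 averaged 186.6 RPM per transcript kilobase in tumor_GEMy lungs, 213.5 in tumor_untreated lungs, 114.4 in naive_GEMy lungs and 52.6 in naive_untreated lungs. Fcgr4 made up 30.5 ± 1.3% of that sum in tumor_GEMy lungs, 26.0 ± 1.8% in tumor_untreated lungs, 27.6 ± 2.9% in naive_GEMy lungs and 12.6 ± 1.0% in naive_untreated lungs (SD, n = 4 each). Fcgr2b made up 13.6 ± 1.5% in tumor_GEMy lungs, 15.6 ± 0.8% in tumor_untreated lungs, 18.3 ± 1.0% in naive_GEMy lungs and 29.1 ± 0.9% in naive_untreated lungs. Fcgr3 stayed the largest share in every lung group, at means of 46.1 to 53.5%. Every lung with a tumor or the cells had a larger Fcgr4 share and a smaller Fcgr2b share than every naive_untreated lung. Per full transcript the Fcgr2b share was 6.46% in tumor_GEMy, 7.46% in tumor_untreated, 8.91% in naive_GEMy and 15.2% in naive_untreated lungs, and the Fcgr4 share 32.9%, 28.4%, 30.7% and 15.0% in the same order. The separation from the naive_untreated lungs held for both shares at either length. These shares carry no test, since the genes were chosen with earlier results of these data known.

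The ratio of Fcgr4 to Fcgr2b, an activating over the inhibitory receptor, was 2.03 to 2.54 in tumor_GEMy lungs, 1.48 to 1.79 in tumor_untreated lungs, 1.23 to 1.69 in naive_GEMy lungs and 0.395 to 0.477 in naive_untreated lungs, per transcript kilobase. The tumor_GEMy lungs lay above all others. Per full transcript these ratios were 4.63 to 5.79, 3.37 to 4.09, 2.81 to 3.85 and 0.901 to 1.09 in the same order. A ratio over Fcgr2b is higher by nearly the same factor in every library at that length, so its size depends on the length and the order of libraries does not. The ratio of Fcgr1 to Fcgr2b was 0.414 to 0.557 in tumor_GEMy lungs, 0.228 to 0.406 in tumor_untreated lungs, 0.402 to 0.513 in naive_GEMy lungs and 0.148 to 0.194 in naive_untreated lungs. For this pair the tumor_GEMy and tumor_untreated ranges also did not overlap. The ratio of Fcgr3 to Fcgr2b was 3.23 to 4.63, 3.02 to 3.64, 2.33 to 2.69 and 1.70 to 1.92 in tumor_GEMy, tumor_untreated, naive_GEMy and naive_untreated lungs, and here the tumor-bearing groups overlapped.

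**Figure D3:**
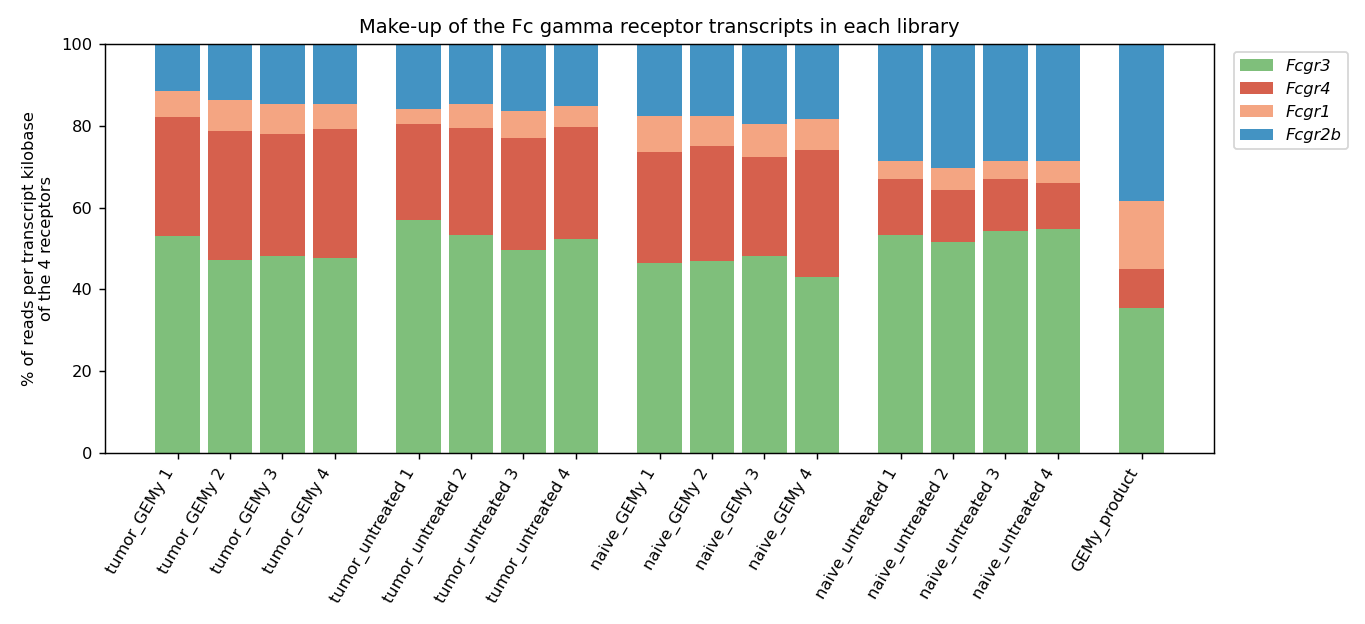
Share of each receptor (vertical axis, %) in the summed reads per transcript kilobase of Fcgr1, Fcgr2b, Fcgr3 and Fcgr4, a bar for each library. Fcgr2b takes 28.5 to 30.4% in naive_untreated lungs, 11.4 to 19.6% in the other lungs and 38.4% in the product, counting the transcript bases within the deposited span.

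Set against Csf1r, a gene of monocytes and macrophages, every other member varied more between groups than Fcgr2b did. The ratio of Fcgr4 to Csf1r was 0.840 to 1.03 in tumor_GEMy lungs, 0.521 to 0.689 in tumor_untreated lungs, 0.439 to 0.578 in naive_GEMy lungs and 0.111 to 0.154 in naive_untreated lungs. The ratio of Fcgr1 to Csf1r was 0.162 to 0.235 in tumor_GEMy lungs, 0.0889 to 0.133 in tumor_untreated lungs, 0.125 to 0.167 in naive_GEMy lungs and 0.0478 to 0.0543 in naive_untreated lungs. For Fcgr4 the tumor_GEMy lungs stood above every other lung, while for Fcgr1 their lowest value lay within the naive_GEMy range. Csf1r itself was lower by 0.58 in tumor_GEMy than in tumor_untreated lungs. Fcgr2b kept close to Csf1r, at ratios of 0.391 to 0.463 in tumor_GEMy, 0.315 to 0.389 in tumor_untreated, 0.293 to 0.356 in naive_GEMy and 0.281 to 0.329 in naive_untreated lungs.

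Against Ptprc, carried by all leukocytes, Fcgr4 kept the same order, with ratios of 0.741 to 0.857 in tumor_GEMy, 0.563 to 0.671 in tumor_untreated, 0.503 to 0.675 in naive_GEMy and 0.169 to 0.270 in naive_untreated lungs. Fcgr2b against Ptprc was lowest in a tumor_untreated library, at 0.316, and highest in a naive_untreated library, at 0.565, and its tumor-bearing and naive_GEMy groups overlapped. Fcer1g kept close to Tyrobp, the other chain of its type, at ratios of 0.627 to 0.712 in tumor_GEMy, 0.553 to 0.756 in tumor_untreated, 0.609 to 0.680 in naive_GEMy and 0.545 to 0.640 in naive_untreated lungs.

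**Figure D4:**
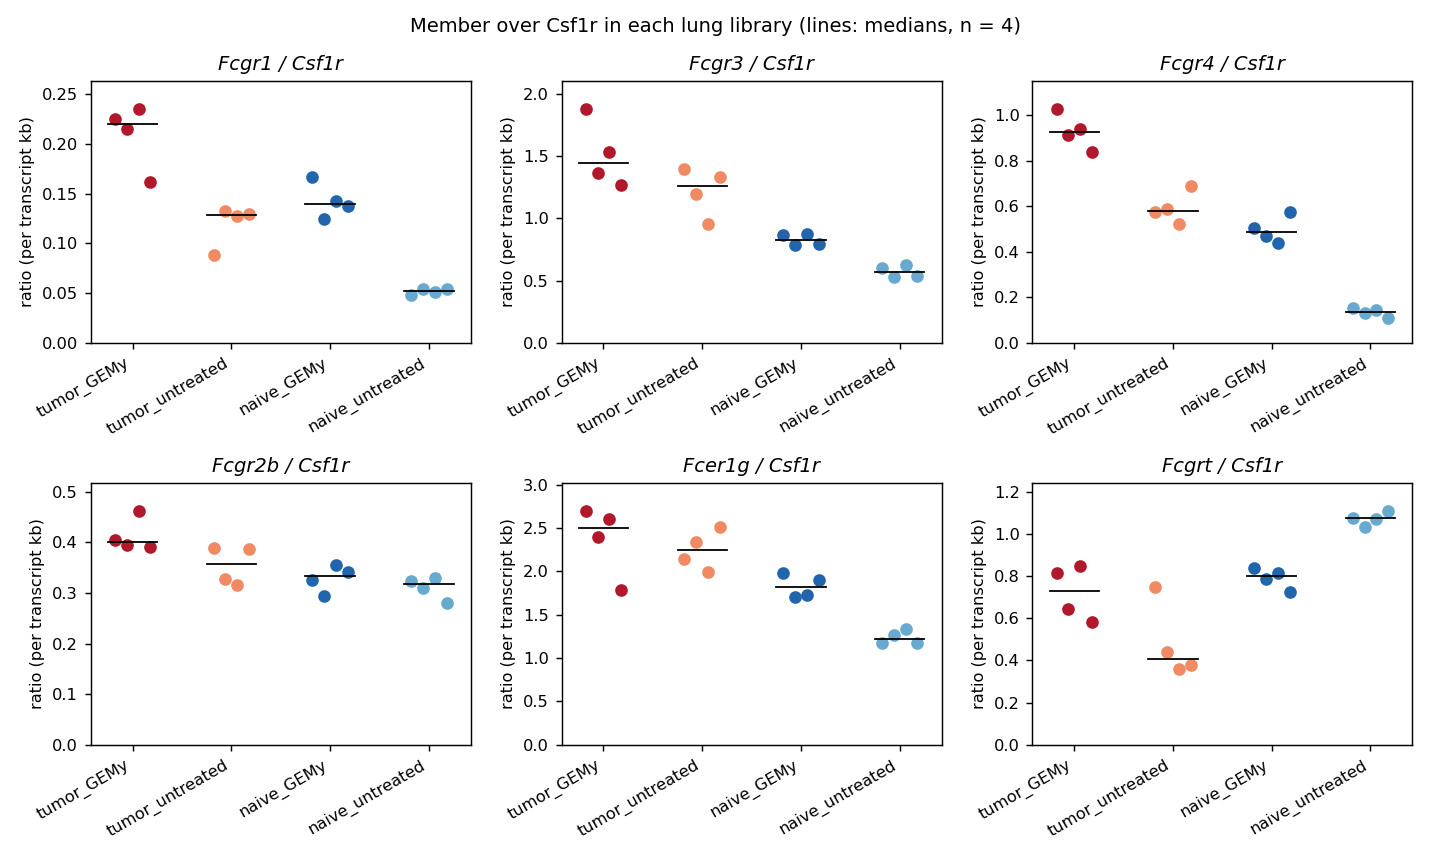
Ratio of each gene to Csf1r per transcript kilobase (vertical axes, linear and starting at 0) in each of 16 lung libraries, with lines at the group medians. The Fcgr4 medians are 0.926, 0.582, 0.488 and 0.137 from left to right, and the Fcgr2b medians 0.400, 0.357, 0.334 and 0.317.

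The injected cells carried the receptors in other proportions than the treated lungs. In the single product library Fcgr1 had 14.2 FPKM (95% Poisson interval 13.8 to 14.6, which like the next ones covers counting error only), Fcgr2b 13.9 (13.6 to 14.3), Fcgr3 21.2 (20.6 to 21.7), Fcgr4 3.94 (3.74 to 4.16), Fcer1g 50.7 (49.5 to 51.8) and Fcgrt 0.709 (0.622 to 0.805). Fcgr1, Fcgr2b and Fcer1g were above every lung, Fcgr4 was below every tumor-bearing lung, and Fcgrt was below every lung. The product's ratio of Fcgr4 to Fcgr2b was 0.245, against 2.03 to 2.54 in tumor_GEMy and 1.23 to 1.69 in naive_GEMy lungs. Its Fcgr2b share of the 4 receptors was 38.4% and its Fcgr4 share 9.40%, or 21.4% and 11.9% per full transcript. Mpo, at 165.5 FPKM in the product, was at 0.346 to 1.23 FPKM in tumor_GEMy, 0.447 to 0.632 in tumor_untreated, 0.0443 to 0.480 in naive_GEMy and 0.0728 to 0.351 FPKM in naive_untreated lungs.

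The promoters of the receptors are shown because the genes moved together, with changes of different size. Against naive_untreated lungs Fcgr1, Fcgr3, Fcgr4 and Fcer1g changed more than Fcgr2b. The promoters of Fcer1g and Fcgrt were searched too and are not printed. RefSeq promoters on build GRCm38.p6, 250 bases before to 50 bases after the start of transcription, were found for all 6 members and read 5′ to 3′ on the gene's strand. They were searched on both strands for the gamma-activated site TTCNNNGAA, for the interferon-stimulated response element, here GAAA, any 2 bases and GAAA again, bound by interferon regulatory factors, and for the PU.1 core GAGGAA, bound by the myeloid factor Spi1. Capitals mark matches, which read TTCCTC where the PU.1 core lies on the other strand. The gene order is Fcgr1 at chr3:96293920-96294219 on the minus strand, Fcgr4 at chr1:171018676-171018975 on the plus strand, Fcgr3 at chr1:171059354-171059653 and Fcgr2b at chr1:170976022-170976321, both on the minus strand.
Fcgr1: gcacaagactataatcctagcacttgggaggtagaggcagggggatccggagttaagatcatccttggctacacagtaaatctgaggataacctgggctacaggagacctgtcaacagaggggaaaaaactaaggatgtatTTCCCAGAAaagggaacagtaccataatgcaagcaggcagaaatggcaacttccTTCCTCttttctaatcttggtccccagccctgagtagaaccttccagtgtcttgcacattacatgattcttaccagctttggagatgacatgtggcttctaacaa
Fcgr4: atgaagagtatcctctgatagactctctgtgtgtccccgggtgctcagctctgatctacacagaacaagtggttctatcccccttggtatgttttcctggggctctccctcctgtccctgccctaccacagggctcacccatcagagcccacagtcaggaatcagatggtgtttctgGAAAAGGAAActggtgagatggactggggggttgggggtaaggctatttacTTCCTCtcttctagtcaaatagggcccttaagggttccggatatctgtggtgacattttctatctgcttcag
Fcgr3: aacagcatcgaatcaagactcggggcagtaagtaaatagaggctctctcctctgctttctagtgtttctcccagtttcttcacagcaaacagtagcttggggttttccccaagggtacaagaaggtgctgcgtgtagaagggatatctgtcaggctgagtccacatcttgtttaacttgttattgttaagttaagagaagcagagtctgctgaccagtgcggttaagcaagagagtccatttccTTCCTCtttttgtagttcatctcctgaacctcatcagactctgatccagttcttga
Fcgr2b: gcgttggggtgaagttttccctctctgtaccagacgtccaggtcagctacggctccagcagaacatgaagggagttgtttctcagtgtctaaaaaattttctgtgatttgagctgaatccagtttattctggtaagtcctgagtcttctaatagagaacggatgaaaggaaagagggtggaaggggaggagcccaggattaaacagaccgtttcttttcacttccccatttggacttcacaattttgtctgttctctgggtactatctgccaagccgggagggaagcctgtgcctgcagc
Fcgr1 holds a gamma-activated site match that starts 109 bases before the start of transcription and a PU.1 match 55 bases before it. Fcgr4 holds an interferon-stimulated response element match 73 bases before the start and a PU.1 match 22 bases before it. Fcgr3 holds a PU.1 match 6 bases before the start in the promoter printed. It has another RefSeq promoter, not printed, in which the same match lies 15 bases before the start. Fcgr2b, Fcer1g and Fcgrt hold none of these letters in this window, from which nothing follows about the factors. Of 32851 RefSeq promoters 8.3% hold the gamma-activated site letters, 3.44% the interferon-stimulated response element letters and 28.3% the PU.1 core. The matches do not overlap each other, and they are descriptions of sequence and not of binding.

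Some cytokines and factors known to act on Fc receptor genes passed in each of the 3 main comparisons. Of all genes tested 16.9% rose and 27.2% fell in tumor_untreated against naive_untreated lungs, 5.60% and 1.50% in naive_GEMy against naive_untreated lungs, and 3.00% and 3.72% in tumor_GEMy against tumor_untreated lungs, and these are the shares beside which each list below stands. Of the 19 tested from this list, 14 rose and 1 fell in tumor_untreated against naive_untreated lungs, 8 rose and 0 fell in naive_GEMy against naive_untreated lungs, and 6 rose and 6 fell in tumor_GEMy against tumor_untreated lungs. Ifng, the gene of interferon-gamma, averaged 1.76 ± 0.44 FPKM in tumor_GEMy, 0.602 ± 0.426 in tumor_untreated, 0.755 ± 0.148 in naive_GEMy and 0.0444 ± 0.0136 FPKM in naive_untreated lungs (SD, n = 4 each). It rose by 1.09 (SE 0.20, adjusted p = 0.00347) in tumor_GEMy over tumor_untreated lungs. Over naive_untreated lungs it rose by 0.94 (SE 0.20, adjusted p = 0.00166) in tumor_untreated and by 1.20 (SE 0.20, adjusted p = 0.000959) in naive_GEMy lungs. The naive_untreated level of Ifng lay well below the 0.5 FPKM added before the log, which shrinks its changes over that group. Spi1 fell by 0.52 (SE 0.12, adjusted p = 0.0139) in tumor_GEMy against tumor_untreated lungs and rose by 0.60 (SE 0.12, adjusted p = 0.00449) in naive_GEMy against naive_untreated lungs. In tumor_untreated against naive_untreated lungs the largest rises in this list were those of C5ar1, the complement C5a receptor, by 1.73 (SE 0.16, adjusted p = 6.36e-07) and Spi1 by 1.52 (SE 0.12, adjusted p = 1.63e-07).

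Most kinases, adaptors and phosphatases below the receptors rose with the tumor. Of 24 signalling genes tested of 28 listed, 18 rose and 2 fell in tumor_untreated against naive_untreated lungs, with a median of 0.57 against -0.048 over all genes tested. The Src-family kinase Fgr rose by 1.79 (SE 0.16, adjusted p = 4.24e-07) and the GTPase Rac2 by 1.44 (SE 0.14, adjusted p = 1.51e-06). Syk rose by 0.79 (SE 0.10, adjusted p = 1.58e-05), and the phosphatases Ptpn6 (SHP-1) by 0.93 (SE 0.15, adjusted p = 0.000152) and Inpp5d by 0.46 (SE 0.073, adjusted p = 0.000162). In naive_GEMy against naive_untreated lungs 6 rose and 0 fell, with a median of 0.24, led by Fgr at 0.60 (SE 0.16, adjusted p = 0.0260) and the adaptor Lcp2 at 0.51 (SE 0.13, adjusted p = 0.0259). In tumor_GEMy against tumor_untreated lungs 1 rose and 4 fell, with a median of -0.18, and Fgr fell by 0.82 (SE 0.16, adjusted p = 0.00396), the adaptor Dok3 by 0.60 (SE 0.13, adjusted p = 0.00869) and Syk by 0.43 (SE 0.10, adjusted p = 0.0113). The interaction term passed as negative for 11 of the 24 and as positive for 0, where 5.22% and 1.04% of all genes did.

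Of the receptors and adaptors listed around Fcer1g and chains of its type, 14 of the 14 tested of 20 listed rose with the tumor. Of all genes 16.9% did, and the median of the list was 1.37. Pirb, an inhibitory receptor that does not signal through such a chain, is among these 14. The C-type lectin Clec4e, a sensor of microbial glycolipids that signals through Fcer1g, was at 1.73 to 4.04 FPKM in tumor_GEMy, 5.54 to 9.46 in tumor_untreated, 0.308 to 0.480 in naive_GEMy and 0.257 to 0.487 FPKM in naive_untreated lungs. It rose by 3.13 (SE 0.18, adjusted p = 1.13e-08) in tumor_untreated over naive_untreated lungs and fell by 1.27 (SE 0.18, adjusted p = 0.000488) in tumor_GEMy against tumor_untreated lungs. Trem1, an amplifier of inflammation on neutrophils and monocytes that pairs with Tyrobp, rose by 2.62 (SE 0.21, adjusted p = 1.88e-07) and fell by 0.96 (SE 0.21, adjusted p = 0.00900) in the same 2 comparisons. In tumor_GEMy against tumor_untreated lungs 8 of the 14 fell and 1 rose, with a median of -0.57, beside the fall of 0.53 in Fcer1g. Tyrobp fell by 0.56 (SE 0.12, adjusted p = 0.0105) there. In naive_GEMy against naive_untreated lungs 4 rose and 0 fell. Ncr1, a natural killer cell receptor that signals through Fcer1g, led them at 1.61 (SE 0.19, adjusted p = 2.04e-05), and Tyrobp rose by 0.78 (SE 0.12, adjusted p = 0.000603).

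Of the receptors for other immunoglobulins, 6 tested of 12 listed, 1 rose and 4 fell in tumor_untreated against naive_untreated lungs, where 27.2% of all genes fell. These 4 include the low-affinity immunoglobulin E receptor Fcer2a, lower by 1.17 (SE 0.17, adjusted p = 7.13e-05) and the immunoglobulin M receptor Fcmr, lower by 0.80 (SE 0.14, adjusted p = 0.000456). Both are known from B cells, of whose markers 4 of 5 tested fell there. Fcer2a was also lower by 0.65 (SE 0.17, adjusted p = 0.0261) in naive_GEMy than in naive_untreated lungs, where 0 of 5 B cell markers passed. The part of B cells in these values was not tested. Trim21, a receptor for antibody inside cells, rose by 1.02 (SE 0.10, adjusted p = 2.94e-06) in naive_GEMy over naive_untreated lungs and by 0.68 (SE 0.10, adjusted p = 0.000697) in tumor_GEMy over tumor_untreated lungs. Pigr, which carries immunoglobulin A across epithelium, rose by 0.70 (SE 0.13, adjusted p = 0.00364) in tumor_GEMy over tumor_untreated lungs. Of the 12 listed immunoglobulin chain genes, the ligands, 1 was tested, Jchain, which joins immunoglobulin A and M, and it passed in 0 of the 3 comparisons, and the others were not analysed here.

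The partner of Fcgrt rose with the tumor and with the cells. B2m averaged 506.5 ± 35.9 FPKM in tumor_GEMy, 405.9 ± 58.3 in tumor_untreated, 462.3 ± 37.7 in naive_GEMy and 195.6 ± 10.4 FPKM in naive_untreated lungs. It rose by 1.04 (SE 0.10, adjusted p = 1.12e-06) in tumor_untreated and by 1.24 (SE 0.10, adjusted p = 3.79e-07) in naive_GEMy over naive_untreated lungs, where Fcgrt was lower by 0.29 and differed by -0.073. Between tumor_GEMy and tumor_untreated lungs B2m differed by 0.33 (SE 0.10, adjusted p = 0.0600). B2m also serves class I histocompatibility molecules. Of the 4 tested genes of this list, which holds the sorting genes of the recycling endosome, 2 rose and 1 fell in tumor_untreated against naive_untreated lungs, where 44.0% of all genes passed, and the gene that fell was Rab11fip5, by 0.29 (SE 0.068, adjusted p = 0.00296).

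**Figure D5:**
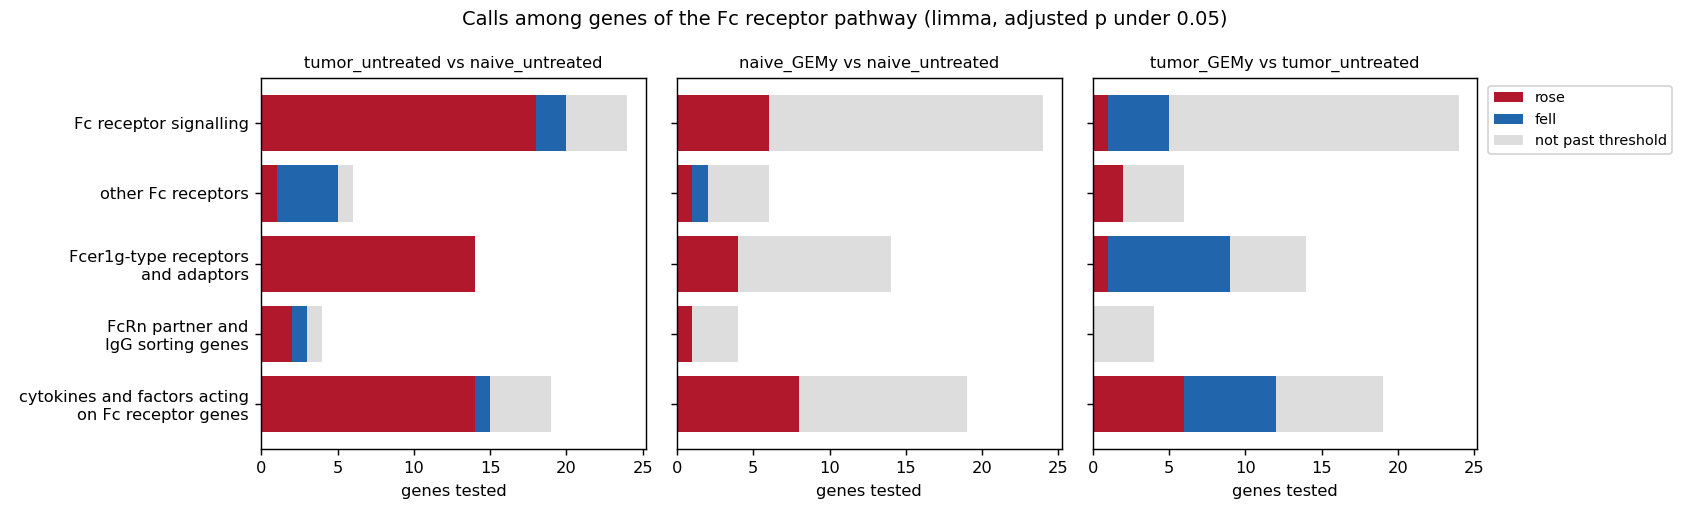
Number of tested genes (horizontal axis) in 5 lists around the Fc gamma receptors that rose, fell or did not pass in 3 comparisons. All 14 tested genes of the list of Fcer1g-type receptors and adaptors, which includes the inhibitory receptor Pirb, rose in tumor_untreated over naive_untreated lungs. In tumor_GEMy against tumor_untreated lungs 8 of the 14 fell.

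The genes whose pattern over the 16 lungs came nearest to each member were found by the root mean square difference of their centred log2(FPKM + 0.5) values. For Fcgr1 these were Trex1 (0.16), Oas2 (0.17) and Ms4a6b (0.17), against a median of 0.73 over all genes. For Fcgr4 they were Slfn1 (0.20), Oas3 (0.20) and Ifi204 (0.23), against 1.05 (the SD of Fcgr4 itself was 1.06). Oas2, Oas3 and Ifi204 are known as interferon-induced genes. For Fcgr3 they were Csf2rb, Tlr13 and Arid5a (0.16 to 0.17), and for Fcer1g they were Tyrobp (0.12), Themis2 (0.12) and S100a4 (0.14). For Fcgr2b they were Rab32 (0.070), Actr3 (0.083) and Plbd1 (0.088), and for Fcgrt Sh3bp5l (0.047), Pskh1 (0.058) and Slc27a1 (0.060), members whose own SDs over the lungs were small, at 0.37 for Fcgr2b and 0.16 for Fcgrt. Among the members Fcer1g and Fcgr3 were nearest to each other, at 0.22, and Fcgr4 and Fcgrt farthest apart, at 1.15.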

How the data were processed

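RNA from 16 flash frozen lungs and 1 cell product was extracted with TRIzol and sequenced by Illumina protocols, per the labels. Reads were aligned to mm10 with STAR 2.7.3a and processed in Partek, per the submitters' processing notes; the annotation and counting settings are not given in the sources used here. The authors deposited FPKM for 18262 genes, and the values fit reads divided by the full genomic span of a gene. Read numbers were recovered from the smallest steps of the values, of which 86.6 to 88.5% under 1000 reads came out whole within 0.02; the test was run on FPKM. limma 3.58.1 in R 4.3.3 fitted 4 group means to log2(FPKM + 0.5) of the deposited values over 16 lungs, with trended, robust moderation, for the 10284 genes that reached 0.5 FPKM in 4 or more lungs. All 6 members passed this filter. Tests were two-sided, with Benjamini-Hochberg adjustment over all genes tested and a threshold of 0.05. The fit was tested on simulated data.

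The members and lists were chosen with earlier results of these data known. The text names every member, the 2 called genes of largest change in each list and comparison, 10 fixed genes and the 3 genes nearest to each member; marker lists are given by counts and sums where they bear on a member, and single markers serve to check tissue and product. Alternatives were other pseudocounts, minima, scalings and moderation, a replicate block, array weights, a hemoglobin covariate, a fit of the compared groups alone and leaving out each library. Replicate numbers were not shown to pair samples, so the fit has no block. Full transcript lengths and marker sums without Lyz2 were added after the values were seen. A comparison of the members' proteins was not made here. Values of 1 gene that this rule names are not reported here.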

Additional observations from a re-analysis of the deposited data

Results flagged for a closer look

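The change in lungs given the cells differed between tumor-bearing and naive mice for 5 of the 6 genes, by the interaction term of the limma fit. The term was -1.67 for Fcgr4, -1.41 for Fcer1g, -1.12 for Fcgr3, -1.09 for Fcgr1 and -0.67 for Fcgr2b on the log2(FPKM + 0.5) scale. For these genes the change of tumor_GEMy over tumor_untreated lungs lay between -0.53 and 0.16, and that of naive_GEMy over naive_untreated lungs between 0.35 and 1.71. The term was not negative for these receptors alone. It also passed as negative for 6 of 11 monocyte and macrophage markers and 5 of 7 natural killer cell markers. In each of the 24 sets of 4 lungs, 1 set for each gene and group, the highest and the lowest library were compared with the others, and 0 stood apart by Dixon's criterion.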

How the results depend on the processing

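Of the members' results under the alternatives, 1116 kept their direction and call, 27 passed newly, 22 were lost and 5 changed sign. In tumor_GEMy against tumor_untreated lungs, where 1 member passed, 0 passed with no minimum, with median-of-ratios scaling, with hemoglobin as a covariate and with only the compared groups, and 3 passed with array weights; leaving out a library gave 0 to 3, the 3 without the first tumor_untreated library. There the Fcgrt difference was -0.0059 with array weights, and leaving out a library gave -0.083 to 0.29 for Fcgr1, -0.12 to 0.15 for Fcgr4 and -0.023 to 0.094 for Fcgrt. In tumor_GEMy against naive_GEMy lungs, where 2 passed, 6 passed with array weights and 1 with hemoglobin, and leaving out a library gave 2 to 4. In tumor_untreated against naive_GEMy lungs, where 4 passed, 1 passed with hemoglobin, and with array weights Fcgr1 and Fcgrt passed as well. The cause was not tested.

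With a replicate block 2 members passed in tumor_GEMy against tumor_untreated lungs. Same-numbered libraries did not all deviate together, with correlations of -0.31 to 0.59 over the 6 pairs of groups, and 18 of 48 correlated best with their own number, so the number is shared and the pairing is not shown.

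Over all genes, array weights raised the called share to 22.9% in tumor_GEMy against tumor_untreated lungs (6.73% otherwise), 19.9% in naive_GEMy against naive_untreated (7.10%), 26.6% in tumor_GEMy against naive_GEMy (13.2%) and 18.3% for the interaction (6.26%). Hemoglobin as a covariate lowered it to 1.65% in tumor_GEMy against naive_GEMy and 4.72% in tumor_untreated against naive_GEMy (22.7%). The compared groups alone gave 2.04% in tumor_GEMy against tumor_untreated, 11.6% in naive_GEMy against naive_untreated and 14.6% in tumor_untreated against naive_GEMy. Quantile normalization split the naive_GEMy against naive_untreated calls into 487 higher and 290 lower, against 576 and 154. Without the first tumor_untreated library 12.2% passed the interaction. Folds of low genes depend on the pseudocount.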
